A study of Mus musculus with 24 samples.

Results

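Selective autophagy receptors bind cargo on one side and ATG8 family proteins on the forming autophagosome on the other. The transcripts of 9 genes of this kind were followed here: *Sqstm1*, *Nbr1*, *Optn*, *Tax1bp1*, *Calcoco1*, *Bnip3*, *Bnip3l*, *Fundc1* and *Tollip*. They were chosen by name as 9 of the 55487 genes in the count table, all 9 passed the filter on low counts, and they were among the 15401 genes tested. The data were 24 libraries of messenger RNA from mouse embryonic fibroblasts (MEFs), with 4 libraries in each of 6 groups. WT cells and *tfeb tfe3* DKO cells, labelled as lacking the transcription factors TFEB and TFE3, were each treated with DMSO as the vehicle, with torin1, an inhibitor of the kinase MTOR, or with MK-8722, an activator of the kinase AMPK. Cells of both genotypes were cultured MEFs received from another laboratory, and whether the DKO cells are 1 clone, as well as the time of drug treatment, is not given in the sources used here. The 4 libraries of a group came from different passages of the same cells, so p-values measure the spread between passages and libraries and not between animals. WT and DKO are separate cell lines, so an effect of genotype and any other difference between the lines cannot be told apart.

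The total estimated count per library was 24668921 to 33332562, and RNA integrity numbers were 7.9 to 9.9. *Tfeb* was 22.9 ± 1.74 CPM (counts scaled to the size of the library; mean ± SD, n = 4) in WT and 2.25 ± 0.289 in *tfeb tfe3* DKO under DMSO, a log2 fold change of -3.35 (edgeR adjusted p = 4.09e-18). *Tfe3* was 120.2 ± 1.17 CPM in WT and 124 ± 2.11 in *tfeb tfe3* DKO under DMSO (log2 fold change 0.04, edgeR adjusted p = 0.279), and it was not lower in DKO under either drug. The amount of *Tfe3* RNA thus does not show the genotype, and each direction drawn between genotypes below rests on the label DKO, which *Tfeb* bears out and *Tfe3* does not. Of 14 fibroblast markers 13 reached 1 CPM in at least 1 library, with *Lum* at no more than 0.0739 CPM in any library. Some of those 13 were low. *Thy1* had counts in 13 of 24 libraries and reached at most 4.56 CPM, *Dcn* at most 1.24 and *Postn* at most 2.56 CPM. *Pdgfra* ran from 4.31 to 171.8 CPM. The summed fibroblast list was 7444.7 to 10647.5 CPM with DMSO in WT and 6579 to 7666 CPM in DKO, with overlap. Of the immune list, 1 of 8 genes reached 1 CPM, *Cd68*, which also encodes a lysosomal protein, and *Adgre1* was at 0 in all 24 libraries. The summed immune list was 1.98 to 2.68 CPM in WT with DMSO, 5.33 to 7.56 with torin1 and 11.0 to 15.1 with MK-8722, and 4.26 to 6.44, 4.98 to 8.84 and 7.98 to 11.6 CPM in DKO in the same order, so it moved with the drugs. Neither the epithelial list (2 of 8 genes reaching 1 CPM, at most 14.6 CPM in all), nor the muscle list (2 of 6, at most 10.4 CPM), nor the endothelial list (1 of 6, at most 1.39 CPM) came near the fibroblast list, whose sum was 6579 to 10810 CPM. The epithelial list, most of it *Krt8*, was 2.85 to 4.82 CPM with DMSO in WT and 2.90 to 4.76 in DKO, and 6.16 to 8.19 and 10.002 to 14.6 CPM with torin1. The neural list, most of it *Nes*, was 459.7 to 505 CPM with DMSO in WT and 254 to 289 in DKO, and 355 to 420.3 and 285 to 350.2 CPM with torin1, so it was lower in DKO. In this list 3 of 6 genes reached 1 CPM. Beside *Nes*, *Tubb3* was at 10.4 to 37.7 CPM and *Sox2* at 1.05 to 4.42 CPM over the 24 libraries. *Gfap*, *Rbfox3* and *Sox10* were under 1 CPM in every library. The part of these lists in the results below was not tested. In bulk libraries, fewer cells that express a gene and less of its RNA per cell cannot be told apart.

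SQSTM1, also called p62, gathers ubiquitinated proteins into condensates and links them to the autophagosome. NBR1 is its relative and partner in that task. OPTN and TAX1BP1 recognise ubiquitin on damaged mitochondria, bacteria and aggregates, and TOLLIP is a ubiquitin-binding adaptor of endosomes and autophagy. CALCOCO1 is a receptor for the endoplasmic reticulum and the Golgi. BNIP3, BNIP3L (also called NIX) and FUNDC1 sit in the outer mitochondrial membrane and bind ATG8 proteins without ubiquitin, and the genes of the first pair are textbook targets of the hypoxia-inducible factors. MTORC1 keeps TFEB and TFE3 in the cytosol, and when it is inhibited they enter the nucleus and bind E-boxes with the core CACGTG, among them sites of lysosomal and autophagy genes.

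The start regions of the genes were read from RefSeq (GRCm38.p6), which listed 8 of the 9 genes with 10 windows in all. Each window holds 250 bases before and 50 bases after a transcription start, written 5′ to 3′ on the gene's strand. The E-box core CACGTG was searched on both strands, where it reads the same, and was present in the window of *Bnip3* alone among the 8 genes, in 1 of 10 windows. Over all 32851 windows of that length it was present in 7.15%. The form TCACGTG and the 10-base palindrome known as the CLEAR motif were in none of the 10 windows, against 3.77% and 0.326% of all windows. The window of *Bnip3* is shown for this match, in capitals at 108 to 103 bases before the start, and those of *Sqstm1* and *Tollip* are shown because these were the genes whose responses to both drugs were lower in *tfeb tfe3* DKO, with no match and so no capitals. The absence of these letters from a window says nothing about sites elsewhere.
Bnip3, chr7:138909457-138909756, minus strand: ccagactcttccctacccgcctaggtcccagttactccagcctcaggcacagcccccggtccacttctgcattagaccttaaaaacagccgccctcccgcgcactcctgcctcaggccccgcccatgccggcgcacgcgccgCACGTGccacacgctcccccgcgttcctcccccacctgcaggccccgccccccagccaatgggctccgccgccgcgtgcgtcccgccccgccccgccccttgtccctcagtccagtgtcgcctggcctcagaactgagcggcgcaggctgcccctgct
Sqstm1, chr11:50210771-50211070, minus strand: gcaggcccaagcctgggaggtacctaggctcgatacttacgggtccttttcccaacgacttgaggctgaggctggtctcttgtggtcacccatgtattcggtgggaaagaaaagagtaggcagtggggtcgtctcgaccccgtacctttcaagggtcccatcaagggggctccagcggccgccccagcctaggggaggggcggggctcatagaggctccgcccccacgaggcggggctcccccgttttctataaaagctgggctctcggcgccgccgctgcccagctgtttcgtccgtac
Tollip, chr7:141902412-141902711, minus strand: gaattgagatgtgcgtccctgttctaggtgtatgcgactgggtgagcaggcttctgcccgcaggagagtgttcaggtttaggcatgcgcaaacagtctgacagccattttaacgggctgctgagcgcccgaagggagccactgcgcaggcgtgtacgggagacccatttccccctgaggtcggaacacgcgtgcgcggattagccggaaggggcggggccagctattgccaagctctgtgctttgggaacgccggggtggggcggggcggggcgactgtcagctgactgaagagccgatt

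The core ACGTG of the hypoxia response element, which lies within CACGTG, was in a window of *Nbr1*, *Tax1bp1* and *Bnip3* and in 19.6% of all windows. The core TGACNNNGC of the antioxidant response element was in a window of *Tax1bp1* and in 12.4% of all windows. These matches are letters in a window and not measured binding.

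Per length, in TPM, a unit that divides counts by transcript length, *Sqstm1* was the most abundant of the 9 transcripts in every group. In WT with DMSO it stood at 318 ± 31.1 TPM (mean ± SD, n = 4), followed by *Bnip3l* at 133 ± 7.15, *Tax1bp1* at 69.7 ± 1.31, *Nbr1* at 61.7 ± 2.77 and *Calcoco1* at 46.2 ± 2.87 TPM. *Optn* at 25.3 ± 1.97, *Fundc1* at 24.9 ± 2.03 and *Tollip* at 24.9 ± 1.53 TPM overlapped their neighbours in this order between libraries, and *Bnip3* was lowest at 16.5 ± 1.23 TPM. With torin1 in WT, *Calcoco1* moved up to 177 ± 8.58 TPM and its libraries overlapped those of *Bnip3l*, at 193 ± 5.69 TPM. In *tfeb tfe3* DKO with DMSO, *Sqstm1* stood at 613 ± 103 TPM and *Tollip* at 49.4 ± 3.16 TPM, the latter overlapping *Nbr1* at 54.4 ± 4.85 TPM. *Bnip3* was last in all 6 groups, with its highest group mean at 23.03 ± 2.09 TPM in DKO with MK-8722. The place of *Bnip3l* rests in part on a transcript of 354 bases that held 45.8% of its TPM with 10.1% of its counts. In CPM, which is not divided by length, *Bnip3l* was at 88.9 in WT with DMSO, below *Nbr1* at 154 and *Tax1bp1* at 138.

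**Figure D1:**
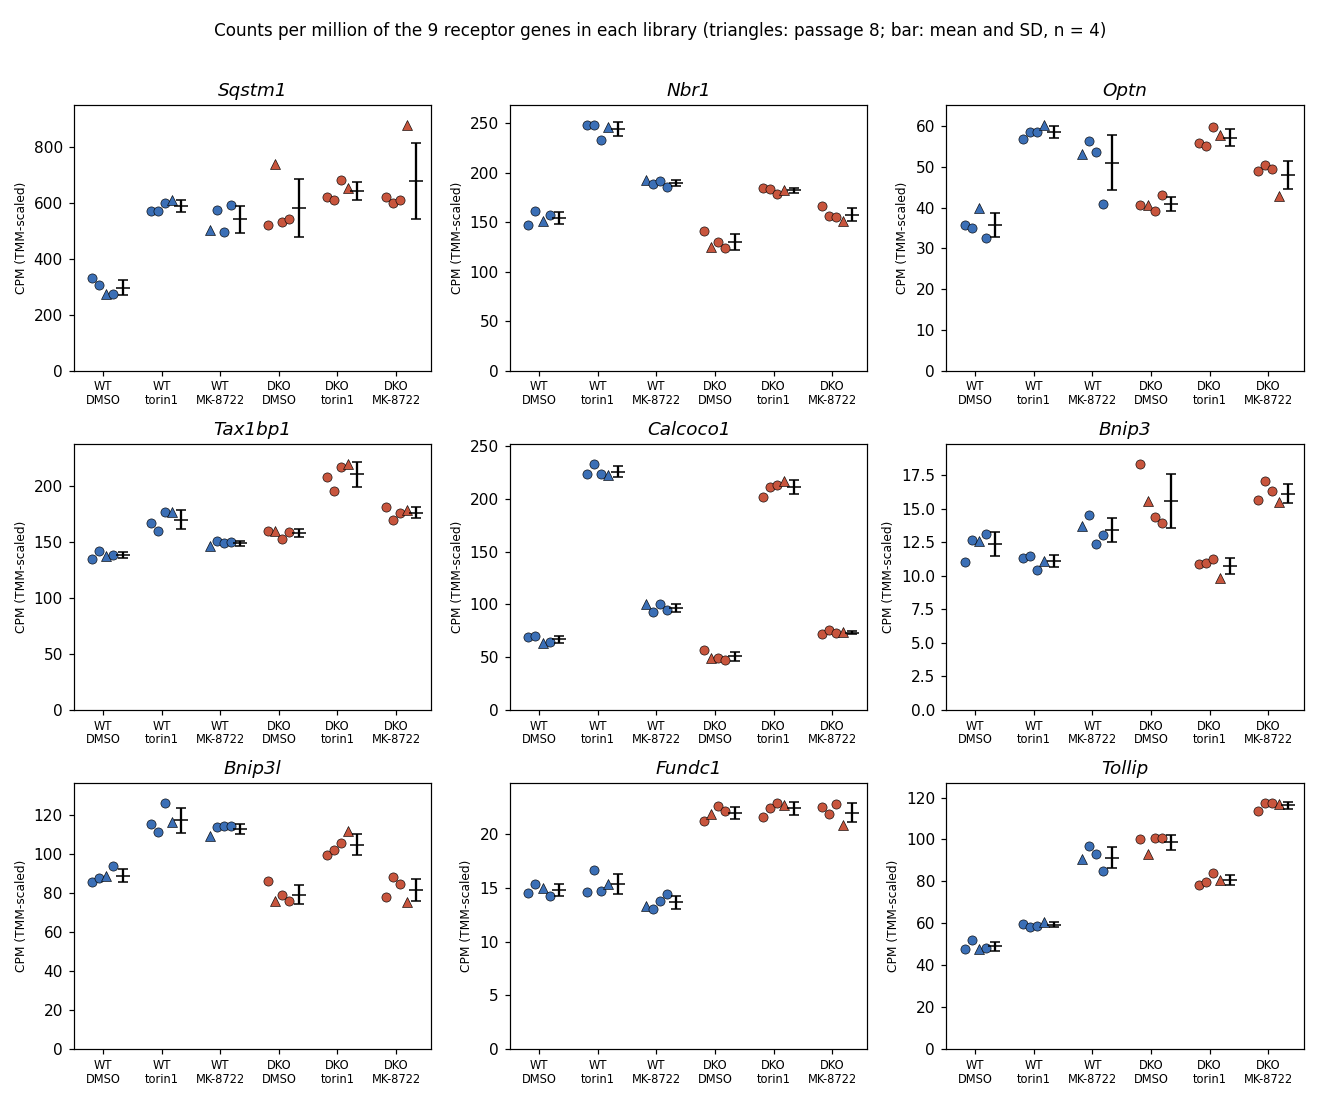
CPM (linear axis from 0, a scale per gene) of the 9 genes in each of the 24 libraries, with points per library, triangles for libraries of passage 8 and bars for the mean and SD (n = 4). *Calcoco1* stands above 200 CPM in all 8 torin1 libraries and at 100.2 CPM or less in all others, and *Sqstm1* is lowest in WT with DMSO.

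The first question was what either drug did to these transcripts in WT cells. A gene is called here when its Benjamini-Hochberg adjusted p in edgeR's quasi-likelihood test over all 15401 genes is under 0.05 and its fold change is at least 1.2 in either direction. With torin1 in WT, 7 of the 9 genes rose, none fell, and *Bnip3* and *Fundc1* were not called. At an unadjusted p under 0.05 none fell either, and limma voom and DESeq2 also called 7 higher and none lower. Among all genes tested, 47.1% were called with torin1 in WT, 26.6% higher and 20.5% lower. With MK-8722 in WT, 6 of 9 rose and none fell, with edgeR, limma voom and DESeq2 alike, and only *Fundc1* was lower at an unadjusted edgeR p under 0.05, against 16.1% of all genes called and 10.3% called higher and 5.87% lower. The median log2 fold change of the 9 genes was 0.40 for torin1 and 0.34 for MK-8722, and that of all tested genes was 0.05 and -0.01. With library size alone in place of TMM scaling the median of all genes with torin1 was 0.14, and 68.2% of all called genes were higher in place of 56.5%. Both drugs are compared to the same 4 DMSO libraries of a genotype, so their values are given side by side and not as separate evidence. Groups without overlap, as described below, are common. Against DMSO, 54.1% of all tested genes did not overlap with torin1 and 29.8% with MK-8722 in WT, and 52.8% and 21.1% in DKO. Between genotypes the shares were 56.8% under DMSO, 60.3% with torin1 and 54.7% with MK-8722, and between the drugs 52.2% in WT and 49.9% in DKO.

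*Calcoco1* had the largest change with torin1 of the 9 genes. In WT its CPM in replicates 1 to 4 was 69.0, 70.0, 63.6 and 64.6 under DMSO, 224, 233, 224 and 223 with torin1 and 100.2, 92.6, 99.9 and 94.8 with MK-8722. No torin1 library came near the DMSO libraries, and the MK-8722 libraries lay between them without overlap. The log2 fold change was 1.76 ± 0.048 (SE) with torin1, a 3.38-fold rise (edgeR adjusted p = 3.22e-17), and 0.54 ± 0.047 with MK-8722 (1.45-fold, edgeR adjusted p = 1e-08). In *tfeb tfe3* DKO the values were 57.0, 49.6, 49.3 and 46.9 under DMSO, 202, 212, 213 and 217 with torin1 and 71.6, 75.4, 72.7 and 73.4 with MK-8722. The order of the groups was the same, again with no overlap. The rise in DKO was 4.16-fold with torin1 (log2 fold change 2.06 ± 0.049, edgeR adjusted p = 2.92e-18) and 1.44-fold with MK-8722 (0.53 ± 0.047, edgeR adjusted p = 2.17e-07). In DKO the response to torin1 was larger by 0.30 ± 0.066 on the log2 scale (95% interval 0.16 to 0.44, edgeR adjusted p = 0.00343). That difference was not called when scaled by library size alone (0.24), with an offset for transcript length (0.21, edgeR adjusted p = 0.151) or without DKO DMSO replicate 4 (0.26). Its starting level under DMSO was lower in DKO (log2 fold change -0.40), while with torin1 the genotypes differed by -0.10 (95% interval -0.20 to 0.00), which was not called. The response to MK-8722 differed between genotypes by -0.01 (95% interval -0.15 to 0.14). *Calcoco1* was higher with torin1 than with MK-8722 by 1.22 in WT and 1.53 in DKO.

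*Sqstm1* rose with both drugs in WT, and its DKO libraries without drug overlapped the drug-treated WT libraries. Its CPM in WT was 331, 306, 273 and 276 under DMSO, 571, 570.4, 600.4 and 612 with torin1 and 504, 574, 497 and 592 with MK-8722. All 8 drug-treated WT libraries lay above all 4 WT DMSO libraries, and the drugs overlapped each other. The rise was 1.98-fold with torin1 (log2 fold change 0.99 ± 0.11, SE, edgeR adjusted p = 8.4e-08) and 1.83-fold with MK-8722 (0.87 ± 0.11, edgeR adjusted p = 2.88e-06). In DKO the CPM was 522, 739, 531 and 541 under DMSO, 622, 609, 681 and 652 with torin1 and 621, 599.6, 609 and 880.2 with MK-8722. DMSO replicate 2 and MK-8722 replicate 4 stood far above the rest of their groups, and both were of passage 8. All 3 DKO groups overlapped. Over all libraries the change in DKO was 0.14 with torin1 (95% interval -0.10 to 0.37, edgeR adjusted p = 0.31) and 0.22 with MK-8722 (95% interval -0.02 to 0.45, edgeR adjusted p = 0.184), neither called. The response was lower in DKO than in WT by -0.85 ± 0.16 on the log2 scale for torin1 (edgeR adjusted p = 0.000623) and -0.65 ± 0.16 for MK-8722 (edgeR adjusted p = 0.0111). Under DMSO *Sqstm1* was 1.97-fold higher in DKO than in WT (log2 fold change 0.98 ± 0.11, edgeR adjusted p = 8.64e-08).

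**Figure D2:**
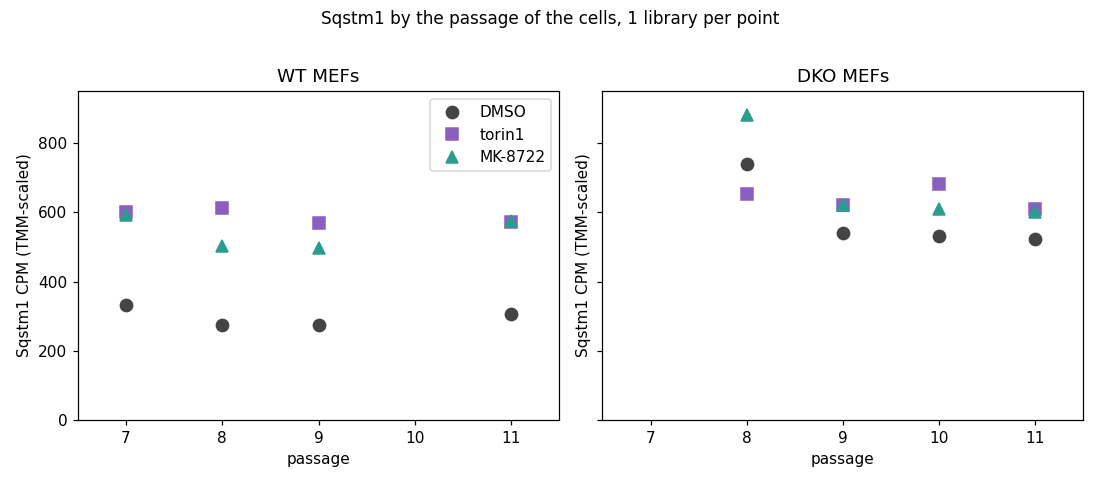
*Sqstm1* in CPM (linear axis from 0) against the passage of the cells, 1 point per library, for WT (left) and *tfeb tfe3* DKO (right). In DKO the passage 8 libraries with DMSO (739 CPM) and MK-8722 (880 CPM) stand above the other passages of their groups, and the passage 8 library with torin1 (652 CPM) does not.

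Because 2 of the 3 DKO libraries of passage 8 stood apart for *Sqstm1*, the comparison was repeated without all 3. *Sqstm1* then rose in DKO with torin1 (log2 fold change 0.27, edgeR adjusted p = 0.00314) and was at 0.20 with MK-8722 (edgeR adjusted p = 0.0597), which was not called. The responses were again lower in DKO, by -0.72 for torin1 and -0.67 for MK-8722 (edgeR adjusted p = 2.84e-05 and 8e-05). Without DKO DMSO replicate 2 alone, both drugs were called in DKO, at 0.27 for torin1 and 0.35 for MK-8722. Without DKO MK-8722 replicate 4 the value for MK-8722 in DKO was 0.06, over 1.5 times smaller. Set against the DMSO library of its own passage, *Sqstm1* with MK-8722 was higher in 4 of 4 passages in DKO, by 0.20 to 0.25 on the log2 scale, and in 4 of 4 in WT, by 0.84 to 0.91. With torin1 it was higher in 4 of 4 passages in WT, by 0.86 to 1.16, and in 3 of 4 in DKO, from -0.18 to 0.36, with passage 8 below 0. Whether a rise of *Sqstm1* was called in DKO thus depended on the passage 8 libraries, whereas both lower responses were called with and without them.

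*Tollip* rose with both drugs in WT, more with MK-8722, and fell with torin1 in *tfeb tfe3* DKO. In WT its CPM was 47.9, 52.2, 47.7 and 48.1 under DMSO, 59.7, 58.3, 58.9 and 60.7 with torin1 and 90.8, 96.9, 92.8 and 84.9 with MK-8722. Each drug group lay above DMSO with no overlap, and MK-8722 above torin1. In DKO it was 100.1, 93.2, 101 and 100.5 under DMSO, 78.4, 79.8, 83.9 and 80.7 with torin1 and 114, 117, 117 and 117 with MK-8722, so the torin1 libraries lay below those with DMSO and the MK-8722 libraries above. In WT *Tollip* rose 1.87-fold with MK-8722 (log2 fold change 0.90 ± 0.039, SE, edgeR adjusted p = 8.65e-14) and 1.21-fold with torin1 (0.28 ± 0.039, edgeR adjusted p = 1.91e-06). In DKO it fell with torin1 by 1.22-fold (log2 fold change -0.29 ± 0.038, edgeR adjusted p = 1.09e-06) and differed by 0.24 ± 0.038 with MK-8722 (edgeR adjusted p = 0.000164), under the 1.2-fold needed for a call. Both responses were lower in DKO, by -0.57 ± 0.055 for torin1 (edgeR adjusted p = 1.67e-07) and -0.66 ± 0.055 for MK-8722 (edgeR adjusted p = 1.7e-08). Under DMSO *Tollip* was 2.01-fold higher in DKO than in WT (log2 fold change 1.01 ± 0.039, edgeR adjusted p = 8.87e-16), above the WT libraries with torin1. With torin1 it was lower than with MK-8722 in both genotypes, by -0.62 in WT and -0.53 in DKO. The torin1 value in WT sat at the edge of the fold threshold: without WT DMSO replicate 3, WT torin1 replicate 1 or 3, or WT MK-8722 replicate 1, 2 or 4 it was 0.25 to 0.26 and not called. With library size alone the fall in DKO was -0.25 and not called.

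**Figure D3:**
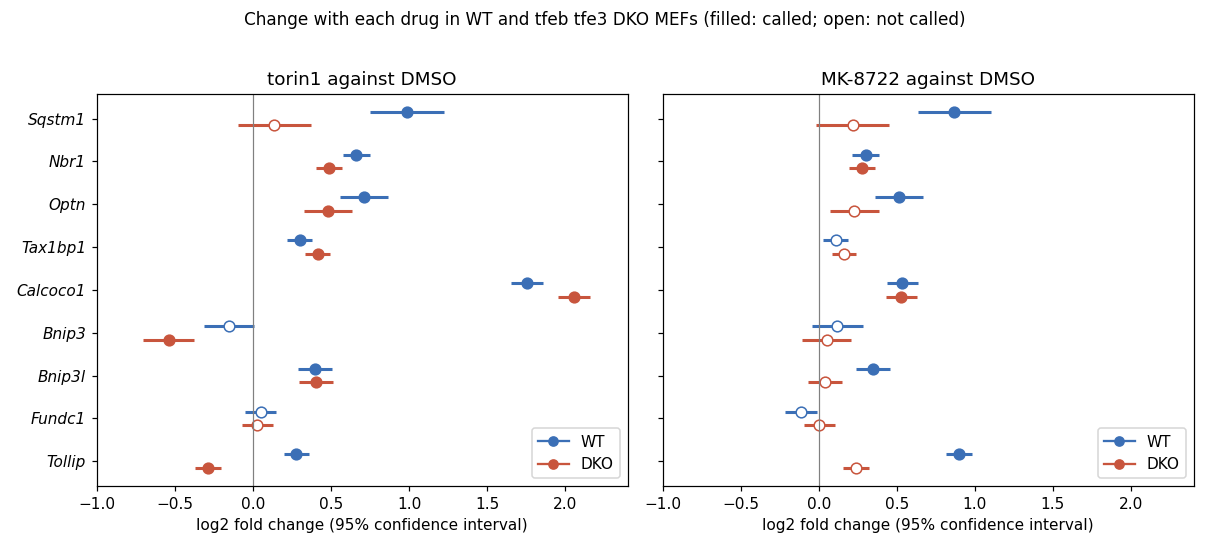
Log2 fold change of each gene with torin1 (left) and MK-8722 (right) against DMSO, in WT (blue) and *tfeb tfe3* DKO (red), with 95% confidence intervals from the fit over 24 libraries and filled points for called genes. The WT and DKO intervals do not overlap for *Sqstm1* and *Tollip* with both drugs, for *Nbr1*, *Calcoco1* and *Bnip3* with torin1 and for *Bnip3l* with MK-8722.

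*Nbr1*, *Optn* and *Tax1bp1*, the other ubiquitin-binding receptors, rose with torin1 in both genotypes. *Nbr1* was 148 to 161 CPM with DMSO, 234 to 249 with torin1 and 186 to 193 with MK-8722 in WT. In DKO it was 124 to 142, 179 to 184 and 152 to 167 CPM in the same order. No groups of 1 genotype overlapped. Its log2 fold change was 0.66 ± 0.040 (SE) with torin1 and 0.30 ± 0.040 with MK-8722 in WT, and 0.49 ± 0.040 and 0.28 ± 0.040 in DKO (edgeR adjusted p = 3.31e-12, 4.59e-06, 5.43e-10 and 5.23e-05). The MK-8722 value in DKO was under 1.2-fold with an offset for transcript length (0.22) and without DKO MK-8722 replicate 1 or DKO DMSO replicate 2 or 4 (0.25 to 0.26). The response to torin1 in DKO was lower by -0.17 (95% interval -0.29 to -0.05, edgeR adjusted p = 0.0414), a difference that passed the p threshold but was under 1.2-fold. With an offset for transcript length this difference was -0.28 and was called (edgeR adjusted p = 0.036). Between the drugs, *Nbr1* was higher with torin1 than with MK-8722 by 0.36 in WT, which was called, and by 0.21 in DKO, which was under 1.2-fold. The DKO value was 0.31 and called with the length offset.

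*Optn* was 32.6 to 39.8 CPM with DMSO, 56.8 to 60.3 with torin1 and 41.0 to 56.3 with MK-8722 in WT, where WT MK-8722 replicate 4 was the lowest of its group by far and still above the DMSO libraries. In DKO it was 39.1 to 43.2, 55.1 to 59.7 and 42.9 to 50.5 CPM, and the MK-8722 libraries overlapped those with DMSO. It rose by 0.71 ± 0.074 with torin1 and 0.51 ± 0.074 with MK-8722 in WT and by 0.48 ± 0.074 with torin1 in DKO, all on the log2 scale (edgeR adjusted p = 2.1e-08, 1.23e-05 and 6.91e-06). With MK-8722 in DKO it was at 0.23 ± 0.074 (edgeR adjusted p = 0.0314), not called, and without DKO MK-8722 replicate 4, a passage 8 library, it was called at 0.28. The response of *Optn* to torin1 differed between genotypes by -0.23 (95% interval -0.45 to -0.01, edgeR adjusted p = 0.15), which was not called. That to MK-8722 differed by -0.29 (95% interval -0.51 to -0.07, edgeR adjusted p = 0.121), and this was called without WT MK-8722 replicate 4 (-0.36, edgeR adjusted p = 0.00564). *Tax1bp1* was 135 to 142 CPM with DMSO and 160.1 to 177 with torin1 in WT, and 153 to 159.8 and 196 to 220.1 in DKO. It rose with torin1 by 0.30 ± 0.037 in WT and 0.41 ± 0.037 in DKO (edgeR adjusted p = 3.35e-07 and 2.43e-09), and without WT torin1 replicate 3 the WT value was 0.25, under 1.2-fold. With MK-8722 *Tax1bp1* was at 0.11 in WT and 0.16 in DKO, both past the p threshold and under 1.2-fold. For *Tax1bp1* the responses in DKO and WT differed by 0.12 (95% interval 0.00 to 0.23) for torin1 and 0.05 (-0.06 to 0.16) for MK-8722, neither called.

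The genes of the mitochondrial membrane receptors moved apart from each other. *Bnip3l* was 85.7, 87.7, 88.7 and 93.6 CPM with DMSO, 115, 111, 126 and 116 with torin1 and 109, 114, 114 and 114 with MK-8722 in WT. In DKO it was 86.1, 76.0, 78.8 and 75.9 under DMSO, 99.5, 102, 106 and 112 with torin1 and 78.1, 88.0, 84.6 and 75.5 with MK-8722. Both drug groups lay above DMSO in WT, and in DKO only torin1 did, while MK-8722 overlapped DMSO. The log2 fold change with torin1 was 0.40 ± 0.051 in WT and 0.40 ± 0.052 in DKO (edgeR adjusted p = 5.89e-07 and 6.11e-07), and the responses to torin1 differed by less than 0.01 (95% interval -0.15 to 0.16). With MK-8722 it was 0.34 ± 0.051 in WT (edgeR adjusted p = 2.02e-05) and 0.04 ± 0.052 in DKO, where it was not called (edgeR adjusted p = 0.643). The response to MK-8722 was lower in DKO by -0.30 ± 0.073 (95% interval -0.46 to -0.15, edgeR adjusted p = 0.0114), and without DKO DMSO replicate 1 it was -0.26 and not called.

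*Bnip3* was not called higher with either drug. In WT its CPM was 11.04, 12.7, 12.6 and 13.2 under DMSO, 11.4, 11.5, 10.5 and 11.1 with torin1 and 13.7, 14.5, 12.4 and 13.1 with MK-8722, and both drug groups overlapped DMSO. In DKO it was 18.4, 15.6, 14.4 and 13.9 under DMSO, 10.9, 10.95, 11.2 and 9.86 with torin1 and 15.7, 17.05, 16.3 and 15.5 with MK-8722, and all torin1 libraries lay below all others. It fell in DKO with torin1 by 1.45-fold (log2 fold change -0.54 ± 0.077, SE, edgeR adjusted p = 2.65e-06), and in WT it was at -0.15 ± 0.076 (edgeR adjusted p = 0.088), not called. With MK-8722 it was at 0.12 in WT (95% interval -0.04 to 0.28) and 0.05 in DKO (-0.11 to 0.21), neither called. The responses to torin1 differed by -0.38 ± 0.11 (95% interval -0.61 to -0.16, edgeR adjusted p = 0.0186). This difference was not called without WT torin1 replicate 1, WT DMSO replicate 1, DKO DMSO replicate 1 or DKO torin1 replicate 4 (-0.34 to -0.28, edgeR adjusted p = 0.0516 to 0.0557), nor with an offset for transcript length (-0.36, edgeR adjusted p = 0.0572). Torin1 gave a lower level than MK-8722 in both genotypes, by -0.27 in WT and -0.59 in DKO, and the WT value was -0.24 and not called without WT MK-8722 replicate 2.

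*Fundc1* showed no called change with either drug. Its CPM was 14.2 to 15.4 under DMSO, 14.6 to 16.6 with torin1 and 13.01 to 14.4 with MK-8722 in WT, and 21.2 to 22.6, 21.5 to 22.9 and 20.8 to 22.8 in DKO. All 12 DKO libraries lay above all 12 WT libraries, whatever the treatment. The 95% intervals of its drug changes were -0.05 to 0.15 for torin1 and -0.22 to -0.01 for MK-8722 in WT, and -0.07 to 0.13 and -0.10 to 0.10 in DKO.

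Reads of *Bnip3* and *Bnip3l* could be shared with near-identical sequences, which makes their counts less certain than those of the other members. The counts of these 2 genes were not whole in any library, as happens where reads are divided between transcripts, while those of the other 7 were within 0.01 of whole in all 24. *Bnip3* transcripts aligned at 95% identity or more, over 100 bases or more, with 5 other genes of GENCODE M21, the longest over 858 bases, and *Bnip3l* with the pseudogene *Bnip3l-ps* over 1131 bases. Those other genes reached at most 7.17 CPM and 2.88 CPM. *Sqstm1* shares 583 bases with *Mrnip* on the opposite strand, which reached at most 14.8 CPM in a strand-specific library, and *Calcoco1* shares stretches of at most 151 bases with 92 other genes, of which the highest reached 888.5 CPM.

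The next question was which of these changes differed in *tfeb tfe3* DKO cells. With torin1 in DKO, 5 of 9 rose (*Nbr1*, *Optn*, *Tax1bp1*, *Calcoco1* and *Bnip3l*) and 2 fell (*Bnip3* and *Tollip*), against 43.2% of all genes called, 23% higher and 20.2% lower. With MK-8722 in DKO, 2 of 9 rose (*Nbr1* and *Calcoco1*) and none fell, with edgeR, limma voom and DESeq2 alike, against 8.69% of all genes called, 5.47% higher and 3.21% lower. At an unadjusted edgeR p under 0.05, *Optn*, *Tax1bp1* and *Tollip* were also higher with MK-8722 in DKO and none of the 9 was lower. The difference between genotypes was tested for each gene and not for the counts. The response to torin1 was called as lower in DKO for *Sqstm1*, *Tollip* and *Bnip3* and as higher for *Calcoco1*, 4 of 9 genes against 11.0% of all genes (4.68% higher, 6.33% lower), of which 42.5% were higher with TMM scaling and 26.5% with library size alone. The response to MK-8722 was called as lower for *Sqstm1*, *Tollip* and *Bnip3l*, 3 of 9 against 5.49% of all genes (1.42% higher, 4.08% lower), and as higher for none of the 9, at an unadjusted p under 0.05 and with limma voom and DESeq2 as well. The remaining 5 and 6 genes were not called, which does not show that they responded alike.

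DKO was compared to WT within each treatment, where genotype cannot be told apart from cell line, and the passages of the 2 lines were partly different. The scaling moves the whole set: with library size alone, the median log2 fold change of all genes with torin1 went from -0.04 to -0.16, and 31.9% of the called genes were higher in DKO in place of 46.3%. Under DMSO, 4 of 9 genes were higher in *tfeb tfe3* DKO (*Sqstm1*, *Tollip*, *Fundc1* and *Bnip3*) and *Calcoco1* was lower, against 48.2% of all genes called (23.5% higher, 24.6% lower), so the count of 5 of 9 is near the background. With torin1, *Tollip*, *Fundc1* and *Tax1bp1* were higher and *Nbr1* was lower, 4 of 9 against 51.8% (24% higher, 27.8% lower). With library size alone, *Tax1bp1* went from 0.31 to 0.18 and was not called, and *Bnip3l* went from -0.16 to -0.29 and was called lower. With MK-8722, *Sqstm1*, *Tollip*, *Fundc1* and *Bnip3* were higher and *Nbr1*, *Calcoco1* and *Bnip3l* were lower, 7 of 9 against 48.7% (23.3% higher, 25.4% lower). *Tollip* was higher in DKO by 1.01 under DMSO, 0.44 with torin1 and 0.35 with MK-8722 on the log2 scale. *Fundc1* was higher by 0.57, 0.55 and 0.69 in the same order (edgeR adjusted p = 4.88e-10, 7.29e-10 and 2.06e-11). These were the only members called in the same direction under all 3 treatments. *Sqstm1* differed by 0.98 under DMSO, and by 0.12 with torin1, where it was not called. With MK-8722 *Sqstm1* was higher by 0.32 (edgeR adjusted p = 0.0149), which was lost without WT MK-8722 replicate 1 (0.28), DKO MK-8722 replicate 4 (0.17) or the DKO libraries of passage 8 (0.17). *Nbr1* was lower in DKO by -0.42 with torin1 and by -0.27 with MK-8722, the latter at -0.26 without DKO MK-8722 replicate 3 and -0.25 without DKO MK-8722 replicate 4, both under 1.2-fold. Library size alone also ended the calls of *Sqstm1* (0.25) and *Bnip3* (0.19) with MK-8722 and added that of *Nbr1* under DMSO (-0.32). Under DMSO *Nbr1* was at -0.25, just under 1.2-fold, and 7 of the 24 left-out libraries brought it to -0.27 to -0.29 and over the threshold: WT torin1 replicates 1 and 3, WT MK-8722 replicates 1, 2 and 4, WT DMSO replicate 1 and DKO DMSO replicate 1. *Bnip3* under DMSO was higher by 0.33 and was under 1.2-fold without DKO DMSO replicate 1 (0.24). With MK-8722 its value of 0.26 was at the fold threshold and fell under it, to 0.23 to 0.26, without any 1 of 11 libraries: DKO DMSO replicates 2, 3 and 4, DKO MK-8722 replicates 2 and 3, WT MK-8722 replicates 1, 3 and 4 and WT torin1 replicates 1, 2 and 3.

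**Figure D4:**
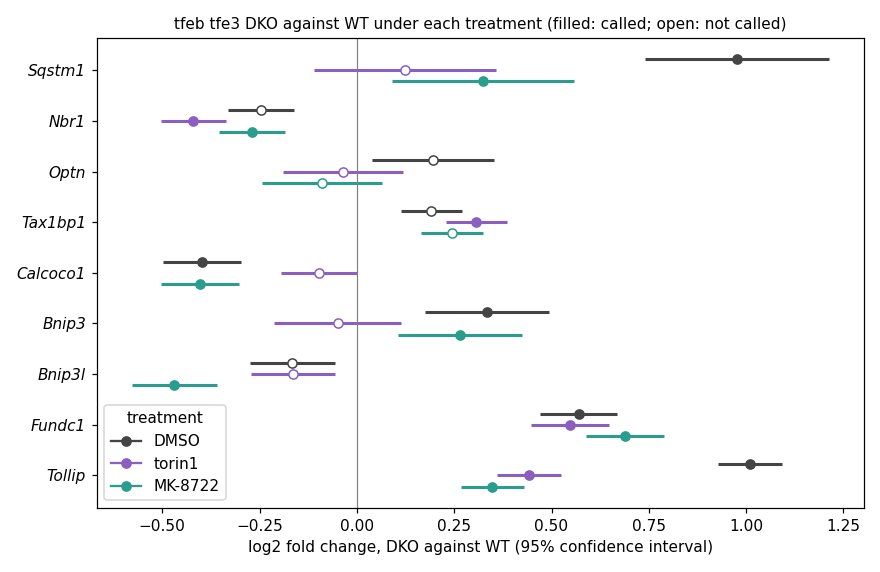
Log2 fold change of *tfeb tfe3* DKO against WT for the 9 genes under DMSO, torin1 and MK-8722, with 95% confidence intervals and filled points for called genes. *Tollip* and *Fundc1* lie above 0 under all 3 treatments, and *Sqstm1* is farthest from 0 under DMSO.

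The drugs were also compared directly with each other. In WT, *Calcoco1* and *Nbr1* were higher with torin1 than with MK-8722 and *Tollip* and *Bnip3* were lower, 4 of 9 against 44.9% of all genes called (24.9% higher, 20% lower), where 55.4% of the called genes were higher and 66.3% with library size alone. In DKO, *Calcoco1* and *Bnip3l* were higher and *Tollip* and *Bnip3* were lower, 4 of 9 against 40.4% (21.1% higher, 19.3% lower). Both counts were near the background. With library size alone *Bnip3* in WT was not called (-0.20), and *Optn* and *Tax1bp1* were called higher in WT (0.28 and 0.27) and in DKO (0.28 and 0.28). *Optn* and *Tax1bp1* in DKO were at 0.25 and 0.25, close to the fold threshold. *Optn* was called at 0.27 to 0.28 without DKO MK-8722 replicate 2 or 3 or DKO torin1 replicate 1 or 2, and *Tax1bp1* at 0.27 to 0.30 without DKO MK-8722 replicate 1 or 4 or DKO torin1 replicate 1 or 2.

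The ATG8 family, the partners that these receptors bind, had 5 genes tested. With each drug in WT, 3 of 5 rose and none fell, and in *tfeb tfe3* DKO 0 of 5 were called with either drug by edgeR's quasi-likelihood test or limma voom. At an unadjusted p under 0.05 in DKO, 1 was higher and 2 lower with torin1 and 2 higher with MK-8722, and DESeq2 called 1 higher with torin1 and 0 with MK-8722. Of all tested genes, 26.6% were called higher with torin1 and 10.3% with MK-8722 in WT, and 23% and 5.47% in DKO. *Map1lc3b*, which encodes LC3B, was 94.5 ± 3.30 CPM in WT with DMSO, 178 ± 3.49 after torin1 and 141 ± 4.03 after MK-8722, and 122 ± 4.39, 146 ± 7.27 and 115 ± 5.70 in DKO (mean ± SD, n = 4). In DKO all its torin1 libraries (135 to 151 CPM) lay above all its DMSO libraries (117 to 127 CPM), as 52.8% of tested genes did not overlap there. This rise was not called by edgeR, so 0 called genes does not show that no ATG8 gene rose in DKO. In WT *Map1lc3b* rose by 0.91 with torin1 on the log2 scale. Its response was lower in DKO by -0.65 for torin1 and -0.66 for MK-8722 (edgeR adjusted p = 4.04e-08 and 3.91e-08). The rise of *Map1lc3b* with torin1 in DKO thus lay just under the 1.2-fold needed for a call. *Gabarap* rose by 0.62 and 0.56 in WT, with responses lower in DKO by -0.78 and -0.55. *Gabarapl1* rose by 0.36 and 0.50, with responses lower by -0.36 and -0.29. The response was thus called as lower for 3 of 5 genes with each drug, against 6.33% of all genes for torin1 and 4.08% for MK-8722.

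Of 22 other selective autophagy receptors tested, 10 rose and 3 fell with torin1 in WT, and 4 rose and none fell with MK-8722. In DKO 12 rose and 4 fell with torin1, and 2 rose with MK-8722. Among all tested genes, 26.6% were called higher and 20.5% lower with torin1 in WT, and 23% and 20.2% in DKO. With MK-8722, 10.3% of all genes were called higher in WT and 5.47% in DKO. The median log2 fold change of the 22 was 0.24 and 0.04 with torin1 and MK-8722 in WT and 0.29 and 0.06 in DKO, beside 0.05, -0.01, 0.02 and 0.00 for all genes. *Retreg1*, a receptor of the endoplasmic reticulum also called FAM134B, rose by 0.99 with torin1 and 0.97 with MK-8722 in WT. Its response to MK-8722 was lower in DKO by -0.78 (edgeR adjusted p = 2.27e-05). The response to torin1 was called as lower for *Retreg2* (-0.45) and *Ccpg1* (-0.36) and higher for *Nufip1* (0.32, and 0.26 and not called with library size alone). The response to MK-8722 was also lower for *Tex264* (-0.34) and *Retreg2* (-0.33).

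Among 29 regulators of these receptors and of mitophagy, 7 rose and 5 fell with torin1 in WT and 3 rose with MK-8722, with medians of -0.05 and 0.05. In DKO 7 rose and 6 fell with torin1 and 5 rose with MK-8722, with medians of -0.04 and -0.02. These counts stand beside 26.6% of all genes higher and 20.5% lower with torin1 in WT, 23% and 20.2% in DKO, and 10.3% and 5.47% higher with MK-8722, and the torin1 counts in WT are near those shares. *Pink1*, the kinase that marks damaged mitochondria, rose by 1.04 with torin1 in WT, and its response was lower in DKO by -0.28 (edgeR adjusted p = 0.00448), which was -0.26 and under 1.2-fold with DESeq2. *Fbxl4*, which encodes a subunit of the ubiquitin ligase that restrains BNIP3 and BNIP3L protein, rose by 0.99 with torin1 and 0.61 with MK-8722 in WT. In this list 1 response to torin1 was higher and 3 lower in DKO, and no response to MK-8722 was called, with *Ppm1k* (-0.73), *Src* (0.36) and *Tank* (-0.30) named beside *Pink1*. Among all tested genes, the response to torin1 was called as higher for 4.68% and lower for 6.33%, and that to MK-8722 was called for 5.49%. Of 34 genes of initiation and conjugation, 13 rose and 9 fell with torin1 in WT and 3 rose with MK-8722, with medians of 0.06 and 0.02. In DKO 11 rose and 13 fell with torin1 and 1 rose with MK-8722, with medians of -0.08 and -0.04. The shares of all genes given above stand beside these counts too. The largest changes with torin1 in WT were those of *Atg14* (1.10), *Wdr45* (1.06), *Wipi1* (0.77) and *Atg4a* (-0.72). The response to torin1 was called as higher in DKO for 3 of the 34 and lower for 6, against 4.68% and 6.33% of all genes. That to MK-8722 was called as higher for 1 and lower for 4, against 1.42% and 4.08%. *Uvrag* and *Atg3* had lower responses in DKO to both drugs, at -0.70 and -0.63 for torin1 and -0.47 and -0.39 for MK-8722. The response of *Epg5* was higher for torin1 (0.41) and lower for MK-8722 (-0.50), and that of *Atg4c* was lower for torin1 (-0.52). That of *Ulk1* to MK-8722 was higher (0.29, not called with library size alone).

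**Figure D5:**
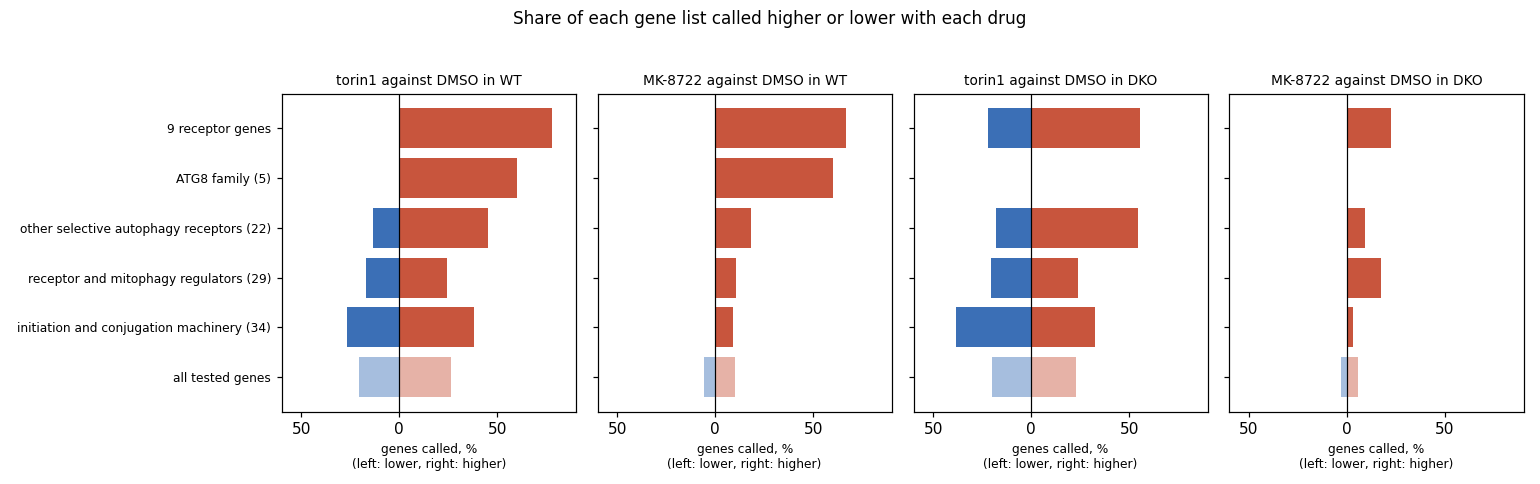
Percent of the genes of each list called higher (to the right, red) and lower (to the left, blue) with each drug in each genotype, with the number of genes tested in brackets and all 15401 tested genes at the bottom. The 5 ATG8 genes have called members in WT and none in *tfeb tfe3* DKO, where *Map1lc3b* was higher with torin1 without a call. Of the 9 receptor genes 7 were higher with torin1 in WT, and 5 were higher and 2 lower in DKO.

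*Bnip3* and *Bnip3l* were set beside 24 other tested entries for target genes of the hypoxia-inducible factors, with *Aldoa* under several identifiers, and *Sqstm1* beside 24 target genes of NRF2, a factor that also acts on its promoter. With torin1 in WT, 6 of the 24 hypoxia-inducible factor targets rose and 13 fell, with a median log2 fold change of -0.37, and 17 of 24 NRF2 targets fell and 1 rose, with a median of -0.50. In DKO the counts were 7 and 11, and 1 and 18. Among all tested genes, 26.6% were called higher and 20.5% lower with torin1 in WT, with a median of 0.05, and 23% and 20.2% in DKO. The 6 hypoxia-inducible factor targets that rose in WT are near that share. *Higd1a* (-1.22) and *Ldha* (-1.10) fell in WT as *Car9* (1.89) and *Pdk1* (1.12) rose. *Car9* was near the floor, at a mean of 0.213 CPM with DMSO and 0.803 with torin1 in WT. *Slc7a11* (-5.00), *G6pdx* (-0.89), *Nqo1* (-0.81) and *Txnrd1* (-0.71) of the NRF2 list fell with torin1 in WT, where *Sqstm1* rose by 0.99. With MK-8722 in WT, 5 hypoxia-inducible factor targets rose and 2 fell, led by *Bhlhe40* (1.58), *Ndrg1* (1.52), *Hk2* (0.88) and *Slc2a1* (0.53), and 2 NRF2 targets rose and 1 fell. Of all tested genes, 10.3% were called higher and 5.87% lower in that comparison. The response to torin1 was called for 2 hypoxia-inducible factor targets, *Vegfa* (0.87) and *Bhlhe40* (-0.65, not called by limma voom), and for 4 NRF2 targets, against 11.0% of all genes. That to MK-8722 was called for *Ndrg1* (-0.63) and for the NRF2 targets *Hmox1* (-0.59) and *Ftl1* (-0.34), against 5.49% of all genes.

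Over the 24 libraries, the levels of *Nbr1* and *Bnip3l* had the highest correlation of any 2 members (Pearson's r = 0.88 of log2 CPM), and those of *Calcoco1* and *Bnip3* the lowest (r = -0.76). These points share 6 groups, so the values describe the group pattern. For each member the 2 other genes with the nearest pattern were found among 10657 genes whose log2 CPM averaged 2 or more. *Calcoco1* was nearest to *Zfp358* (r = 0.99) and *Ap3b1* (0.99), *Tax1bp1* to *Serinc1* (0.99) and *Septin10* (0.98), and *Fundc1* to *Gm46620* (0.98) and *Tbx4* (0.98). *Nbr1* was nearest to *Ctbs* (0.98) and *Trpm4* (0.96), *Tollip* to *Ndel1* (0.96) and *Rell1* (0.96), and *Bnip3l* to *Fgfr1* (0.96) and *Zbtb10* (0.94). *Sqstm1* had lower values, with *Repin1* (0.93) and *Gfra1* (0.92), as did *Optn* with *Fbxl2* (0.93) and *Spg11* (0.93) and *Bnip3* with *Tmem263* (0.93) and *Stx7* (0.90).

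Each gene was read as several transcripts, from 5 for *Optn*, *Bnip3*, *Fundc1* and *Tollip* to 21 for *Nbr1*. The most abundant transcript of *Sqstm1* gave 51.8% to 55.7% of its TPM over the group means, that of *Tax1bp1* 92.1% to 93.3% and that of *Calcoco1* 51.3% to 58.8%. The share for *Tollip* was 63.9% to 70.7%, for *Optn* 50.9% to 55.1% and for *Nbr1* 26.3% to 31.0%. For *Fundc1* it was 28.4% to 38.2%, and its SD within a group reached 6.53 percentage points. For *Bnip3l* the transcript with most TPM is 354 bases long and held 45.8% of the TPM with 10.1% of the counts, while the one with most counts is 3238 bases long and held 54.4% of the counts. *Bnip3* was split in the same way between transcripts of 719 and 1756 bases, with 49.0% and 47.8% of the TPM. No test was run on these shares.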

How the data were processed

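Messenger RNA of 24 libraries from MEFs was sequenced as strand-specific, 52-base paired-end reads per the labels. The authors aligned the reads with STAR to the mouse genome GRCm38 and estimated counts with Salmon through the nf-core/rnaseq pipeline, with molecular identifiers considered, and the versions of STAR and Salmon are not given in the sources used here. The deposited gene table holds Salmon's estimated counts (expected counts), and the deposited transcript tables hold estimated counts and TPM. The methods of the study name a removal of batch effects, whose batch is not given in the sources used here, and none was applied to the counts here. All libraries carry the same batch label.

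Counts were rounded to whole numbers and analysed with edgeR 4.0.16 and limma 3.58.1 in R 4.3.3. Genes were kept with filterByExpr (minimum count 10), scaled by TMM (factors 0.95 to 1.08), and fitted with 1 mean per group over all 24 libraries (18 residual degrees of freedom, biological coefficient of variation 10.7%). edgeR's quasi-likelihood test was run for 11 contrasts, with p-values adjusted by the Benjamini-Hochberg method over 15401 genes, and a gene was called at an adjusted p under 0.05 when it also changed 1.2-fold or more. CPM were TMM-scaled, gene TPM are sums over transcripts, standard errors are log2 fold changes divided by the square root of the F statistic, and intervals are 95% confidence intervals. DESeq2 1.42.0 and limma voom were alternatives. The steps were tested on simulated counts. Shared sequence was searched with BLAST 2.17.0 among GENCODE transcripts.

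The 9 genes and the gene lists were chosen with earlier results of these data known. The genes named are the 9, *Tfeb* and *Tfe3*, the 2 genes nearest to each member in pattern, and up to 4 called genes per list and comparison with the largest change. Same-numbered libraries did not pair: the correlation of their deviations from group means was over 0.1 in 13 of 60 pairs (median 0.044). It was over 0.1 in 17 of 24 pairs of the same passage and genotype (median 0.157), 10 of 12 in WT (median 0.267) and 7 of 12 in DKO (median 0.131), and a block of passage was among the alternatives. Depth was 24668921 to 33332562 counts (median 27988364), so counting error was smallest for *Sqstm1* (7320 counts or more) and largest for *Bnip3* (276 or more). In 36 pairs of libraries of 1 group, the chi-square per degree of freedom was 3.8 to 39.2, so no 2 were the same library. Annotated windows and sequences came from RefSeq (GRCm38.p6).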

Additional observations from a re-analysis of the deposited data

Results flagged for a closer look

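In 54 groups of 4 libraries (9 genes in 6 groups), 7 held a library far from the other 3, where chance would give about 1 in 20 groups. *Sqstm1* stood at 738.7 CPM in DKO DMSO replicate 2, against 521.8 to 541.1 in the others, and at 880.2 CPM in DKO MK-8722 replicate 4, against 599.6 to 620.6, and both libraries were of passage 8. *Tax1bp1* was low in DKO DMSO replicate 3, at 152.5 CPM against 159.2 to 159.8. *Calcoco1* was high in WT torin1 replicate 2, at 233.3 CPM against 222.7 to 223.7. *Bnip3l* was low in WT MK-8722 replicate 1, at 109 CPM against 114.1 to 114.3. *Tollip* was high in WT DMSO replicate 2, at 52.16 CPM against 47.7 to 48.11, and low in DKO DMSO replicate 2, at 93.22 CPM against 100.1 to 100.6.

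The response of 7 gene and drug combinations differed between genotypes in the test of the difference itself (edgeR's quasi-likelihood test). With torin1 the differences on the log2 scale were -0.85 for *Sqstm1*, -0.57 for *Tollip*, -0.38 for *Bnip3* and 0.30 for *Calcoco1*. With MK-8722 they were -0.65 for *Sqstm1*, -0.66 for *Tollip* and -0.30 for *Bnip3l*. The values of *Sqstm1* and *Tollip* were called without any 1 of the 24 libraries, and those of *Bnip3*, *Calcoco1* and *Bnip3l* each lost the call without at least 1 library.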

How the results depend on the processing

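Of 99 values (9 genes in 11 contrasts), 53 were called. Of these, 37 were called under every alternative and without any 1 of the 24 libraries, 40 if glmTreat is set aside, and none changed sign. There were 16 alternatives, and 15 for DKO against WT, where the block of passage within genotype was not fitted. Of the 46 uncalled values, 20 were called in some setting, and 11 changed sign, all near 0. With the false discovery rate alone, the number of the 9 genes called went from 2 to 5 for MK-8722 in DKO, from 5 to 9 for DKO against WT under DMSO and from 4 to 7 for torin1 against MK-8722 in WT and in DKO. With glmTreat, which tests against 1.2-fold, it was 1 for MK-8722 in DKO, 4 for DKO against WT under MK-8722, 2 for the response to torin1 and 1 for that to MK-8722. The response of *Sqstm1* to MK-8722 was among those lost (glmTreat adjusted p = 0.124). In WT, glmTreat also ended the calls of *Tax1bp1* and *Tollip* with torin1 and of *Nbr1* and *Bnip3l* with MK-8722. With an offset for transcript length the number called was 1 for MK-8722 in DKO and 7 for torin1 against MK-8722 in DKO. Leaving out 1 library at a time gave 5 to 7 genes for torin1 in WT, 6 for MK-8722 in WT, 7 to 8 for torin1 in DKO and 1 to 3 for MK-8722 in DKO. It gave 5 to 6, 4 and 5 to 7 for DKO against WT under DMSO, torin1 and MK-8722, 3 to 4 and 2 to 4 for the responses to torin1 and MK-8722, and 3 to 4 and 4 to 6 for torin1 against MK-8722 in WT and DKO. The lowest for MK-8722 in DKO was without DKO MK-8722 replicate 1 or DKO DMSO replicate 4, and the highest without DKO MK-8722 replicate 4. Uncalled values of the other sign were, for *Sqstm1*, -0.00326 with library size alone for DKO against WT under torin1, and 0.072 without the DKO libraries of passage 8 for torin1 against MK-8722 in DKO (-0.14 to 0.080 with single libraries left out). For *Calcoco1* the response to MK-8722 was 0.00248 with DESeq2 size factors and 0.00112 with DESeq2 (-0.040 to 0.057). For *Bnip3*, DKO against WT under torin1 was 0.053 with the length offset, and the response to MK-8722 was -0.12 to 0.023 with libraries left out. For *Bnip3l*, MK-8722 in DKO was -0.018 with the length offset, the response to torin1 was -0.00752 with at least 10 counts in every library, -0.054 with library size alone, -0.061 with the length offset, -0.00263 with only the groups compared and -0.041 without the DKO libraries of passage 8 (-0.021 to 0.079 with libraries left out), and torin1 against MK-8722 in WT was -0.00358 to 0.078. For *Fundc1*, MK-8722 in DKO was -0.00662 without a filter (-0.015 to 0.028), and the response to torin1 was 0.068 with the length offset (-0.033 to 0.021). For *Nbr1* the response to MK-8722 was -0.052 to 0.024. The cause of these changes was not tested. By estimated counts in place of TPM, the share of the transcript with most TPM was 74.68% for *Sqstm1*, 34.35% for *Nbr1*, 62.91% for *Optn*, 98.12% for *Tax1bp1*, 70.63% for *Calcoco1*, 26.68% for *Bnip3*, 10.06% for *Bnip3l* and 83.25% for *Tollip*. The replicate block changed 0 of 99 calls (53 called), and since same-numbered libraries share no more than a number it is no paired test. A passage block changed 1, *Bnip3* in DKO against WT under MK-8722, and a block of passage within genotype 0 of 72. Over all genes, MK-8722 called 2487 in WT and 1338 in DKO, 4775 and 3198 with the false discovery rate alone, and 956 and 174 with glmTreat. The responses to torin1 and MK-8722 called 1696 and 846 genes, 454 and 273 with glmTreat, and that to MK-8722 1392 with the block of passage within genotype. Calls within a few hundredths of the fold threshold (0.26 on the log2 scale) are set by it, and *Bnip3*, with the fewest counts, is limited most by depth.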
